A study of Mus musculus with 3 samples.

Results

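The 10 genes followed here are ones that macrophages use to carry, sense and store lipid and they were measured in the immune cells of inflamed peripheral nerve: Apoe, Apoc1, Apoc2, Trem2, Gpnmb, Spp1, Fabp5, Lpl, Abca1 and Cd36. They were chosen by name, as 10 of the 32285 gene rows measured, and none of them took part in defining the cell classes they were compared across. Single-cell RNA was sequenced from CD45+ immune cells sorted by flow cytometry from sciatic nerves of NOD.AireGW/+ mice that had developed neuropathy. The mice carry a partial loss-of-function allele of Aire, a gene needed for immune tolerance, in 1 copy on the autoimmunity-prone NOD background, and all of the libraries share that genotype. Library 1 and library 2 came from 1 mouse each and library 3 from 2 mice pooled. No control mice were analysed here, so the cell classes were compared within the diseased nerve, and no disease effect can be read from them. The labels give no ages.

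Apolipoproteins are the protein part of lipoprotein particles. Macrophages that take up lipid-rich debris, such as the myelin of damaged nerve, hand cholesterol to apolipoprotein E through membrane transporters including ABCA1, and cholesterol derivatives switch several of these genes on through the liver X receptors. TREM2 is a surface receptor that binds lipids and apolipoproteins and signals through TYROBP, and GPNMB, SPP1 and FABP5 belong to the set of genes raised in lipid-laden macrophages of several tissues. LPL cleaves triglyceride, and CD36 takes up fatty acids and modified lipoproteins.

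The 3 apolipoprotein genes sit together in the genome. In GENCODE vM21 (GRCm38, the mm10 build of the files), Apoc2 (19671579 to 19677941), Apoc1 (19689481 to 19692660) and Apoe (19696109 to 19699188) lie on the minus strand of chromosome 7 within 27610 bases, with Apoc4 between Apoc2 and Apoc1. Trem2 lies on chromosome 17 (48346401 to 48354147, plus strand), Gpnmb on chromosome 6 (49036546 to 49070929, plus strand), Fabp5 on chromosome 3 (10012548 to 10016607, plus strand) and Lpl on chromosome 8 (68880491 to 68907448, plus strand). Spp1 (104435118 to 104441050, plus strand) and Cd36 (17781690 to 17888801, minus strand) are both on chromosome 5, and Abca1 is on chromosome 4 (53030787 to 53159895, minus strand). All are annotated as protein coding. Apoc2 and Apoc4 overlap Gm44805 and Spp1 overlaps Gm42793 on the same strand, and the effect of these overlaps on the counts was not tested.

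RefSeq (GRCm38.p6) promoter windows matched 7 of the 10 members. The 4 shown here were picked because they belong to genes that behaved differently below: Apoe and Trem2, high in macrophages and monocytes, Abca1, which also reached B cells, and Cd36, highest in dendritic cells. Each is the 250 bases before the transcript start, read 5′ to 3′ on the gene's strand, for Apoe at chr7:19699189-19699438 (minus), for Trem2 at chr17:48346151-48346400 (plus), for Abca1 at chr4:53159896-53160145 (minus) and for Cd36 at chr5:17835897-17836146 (minus). Capitals mark matches on either strand to 5 motifs. GAGGAA is the core bound by PU.1, the lineage factor of macrophages. TGANTCA is the site of AP-1 factors, and CACGTG is the E-box. The last of them are the promoter elements TATAAA, known as the TATA box, and GGGCGG, known as the GC box. No marked matches overlap in these windows.
Apoe: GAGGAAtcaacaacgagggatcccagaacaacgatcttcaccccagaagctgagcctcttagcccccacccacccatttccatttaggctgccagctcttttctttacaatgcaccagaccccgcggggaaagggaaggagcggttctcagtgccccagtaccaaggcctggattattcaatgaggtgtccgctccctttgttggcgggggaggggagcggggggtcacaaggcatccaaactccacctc
Trem2: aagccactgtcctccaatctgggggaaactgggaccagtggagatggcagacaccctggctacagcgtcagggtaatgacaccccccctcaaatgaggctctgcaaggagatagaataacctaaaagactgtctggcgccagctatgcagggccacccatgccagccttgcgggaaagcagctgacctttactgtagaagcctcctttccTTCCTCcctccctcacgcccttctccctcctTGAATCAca
Abca1: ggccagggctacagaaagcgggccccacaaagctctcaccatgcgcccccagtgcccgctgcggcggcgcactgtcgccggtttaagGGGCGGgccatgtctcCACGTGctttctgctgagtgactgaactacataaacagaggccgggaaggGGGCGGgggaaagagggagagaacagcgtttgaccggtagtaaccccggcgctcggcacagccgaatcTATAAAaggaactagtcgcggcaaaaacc
Cd36: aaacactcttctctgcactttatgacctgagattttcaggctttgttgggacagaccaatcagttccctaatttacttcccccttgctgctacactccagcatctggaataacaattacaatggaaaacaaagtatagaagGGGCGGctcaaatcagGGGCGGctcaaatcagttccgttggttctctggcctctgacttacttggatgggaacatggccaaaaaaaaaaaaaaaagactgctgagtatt
The Apoe window held GAGGAA at its far end, 250 bases before the start, and the Trem2 window held it on the opposite strand 40 bases before the start, next to a TGANTCA match 9 bases before it. Among 32851 windows of the same length GAGGAA was found in 23.3% and TGANTCA in 6.75%. The Abca1 window held CACGTG, 2 GC boxes and a TATA box 29 bases before the start, motifs found in 6.02%, 32.7% and 12.4% of windows. The Cd36 window, at a RefSeq start that lies inside the GENCODE span of the gene, held 2 GC boxes. These are matches of letters and were not tested for binding. RefSeq lists 3 starts for Apoe and the one at the 5′ end of the gene is shown. The Gpnmb and Apoc2 windows held none of the 5 motifs.

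Cells were gated by UMIs of marker genes, where each UMI, a molecular barcode added before amplification, stands for 1 captured transcript. C1q macrophages had at least 5 UMIs of C1qa, C1qb and C1qc together, the complement genes typical of tissue macrophages. Monocytes had at least 2 UMIs of Ly6c2, Vcan, F13a1 and Chil3 with at least 3 of Lyz2, and dendritic cells at least 2 of Flt3, Zbtb46, Xcr1, Clec9a, Cd209a and Fscn1 with at least 10 of the MHC class II genes H2-Aa, H2-Ab1, H2-Eb1 and Cd74. T cells had at least 2 UMIs of Cd3d, Cd3e and Cd3g, B cells at least 2 of Cd79a, Cd79b and Ms4a1, and each class was limited in the markers of the others. Cell barcodes shared between libraries numbered 36 (libraries 1 and 2), 7 (1 and 3) and 14 (2 and 3). The libraries differed in macrophages. Library 1 held 10 C1q macrophages, library 2 held 1866 and library 3 held 4. Monocytes numbered 52, 130 and 16, dendritic cells 76, 240 and 17, T cells 2857, 4005 and 1173, and B cells 347, 358 and 82. Another 506, 1657 and 241 cells (13.1%, 20.1% and 15.7%) fell in no gate. Among cells with at least 5 C1q UMIs, 21 of 31, 1033 of 2899 and 2 of 6 also had over 1 T or B marker UMI and were left out, and whether these are doublets was not tested.

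A macrophage level therefore means library 2 for most purposes. Library 1 contributed 65923 macrophage UMIs against 14031887 in library 2, and the 4 macrophages of library 3 were too few for a test. Genes outside the gates were used to check the classes, with levels given in CPM (the UMIs of a gene in a class for every 1000000 UMIs of that class). In libraries 1 and 2 the macrophage markers Adgre1, Csf1r, Mertk, Ms4a7, Pf4 and Cd68 summed to 1990 and 2830 CPM in C1q macrophages, with Pf4 at 0 in library 1. They also summed to 1210, 1070 and 668 CPM in monocytes, with Pf4 at 0 in all 3 libraries, so the monocyte gate held cells with macrophage transcripts. Monocyte markers (Plac8, Ccr2, Ifitm6, Ms4a4c and Fcgr1) summed to 6610, 3420 and 3550 CPM in monocytes and to 2620 and 946 CPM in C1q macrophages of libraries 1 and 2. The T cell markers stood at 2640, 2320 and 2450 CPM in T cells and at most at 165 CPM in any other class. Dendritic markers (Itgax, Batf3, Irf8, Ccr7, Clec10a, Ccl22 and H2-DMb2) summed to 2820, 3160 and 2000 CPM in dendritic cells. They were also at 2310, 910 and 2600 CPM in B cells and at 3240 CPM in the 4 macrophages of library 3, so in library 3 that list did not single out the dendritic class.

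Apoe was the member with the highest UMI level in C1q macrophages of each library. It stood at 5610 CPM in library 1, 32600 CPM in library 2 and 8490 CPM in the 4 macrophages of library 3. A single macrophage held 163 of the 370 Apoe UMIs of library 1. Monocytes had 1150, 8920 and 3330 CPM in libraries 1 to 3. In every library macrophages were above monocytes, by 4.88 times in library 1 and 3.65 times in library 2, but macrophages of library 1 were below monocytes of library 2. Dendritic cells had 1.17, 52.7 and 0 CPM, from 1, 115 and 0 UMIs. In library 2, Apoe UMIs were found in 1831 of 1866 macrophages, and the 187 cells richest in Apoe held 26.6% of them. For Gpnmb the richest 187 cells held 76.3%, so Apoe was spread over nearly all macrophages and Gpnmb over fewer. The plot of levels by class and library shows this order for Apoe beside the other members.

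**Figure D1:**
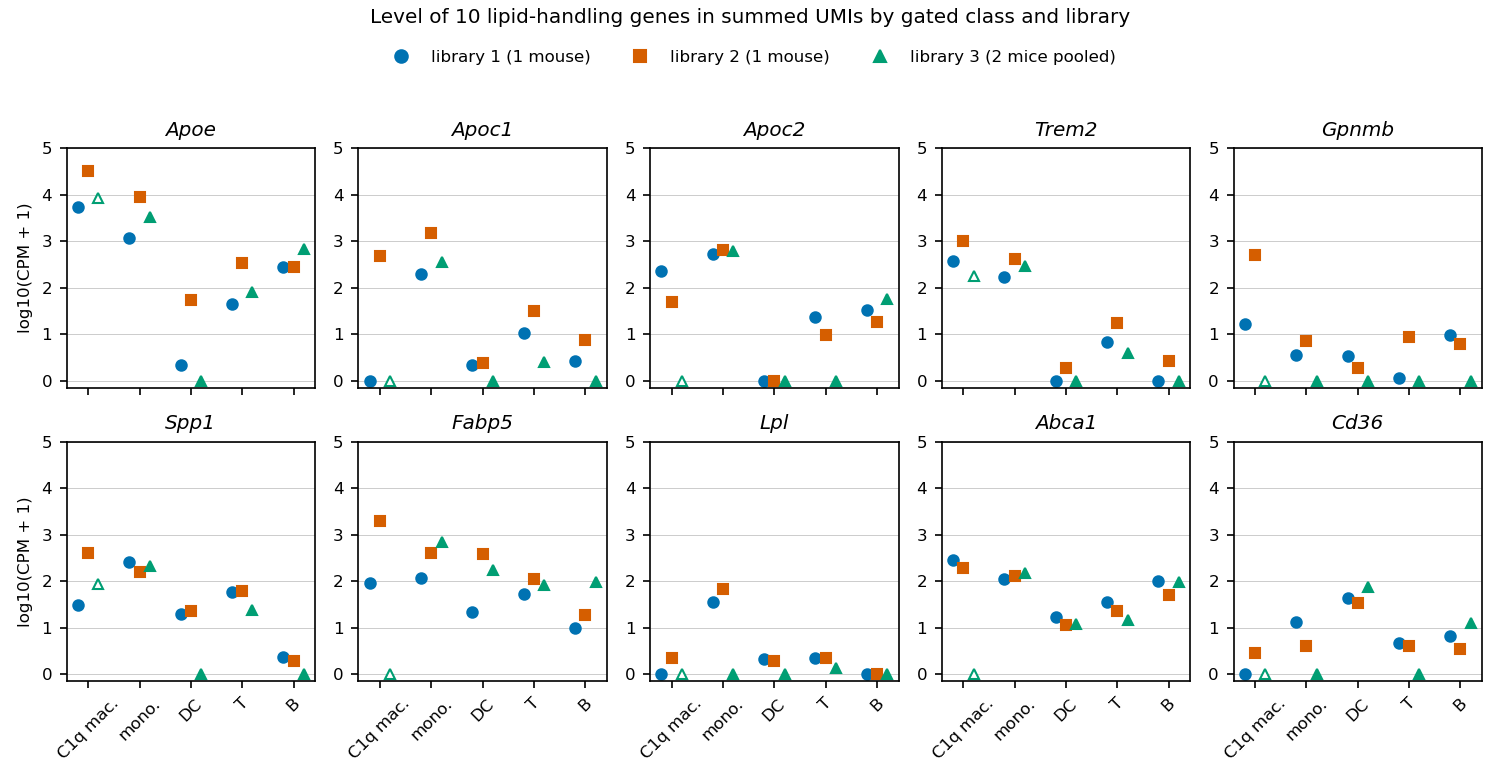
Levels of the 10 members as log10(CPM + 1) in summed UMIs of C1q macrophages (C1q mac.), monocytes (mono.), dendritic cells (DC), T cells and B cells, 1 point per library. Open points are sums of fewer than 10 cells. Apoe, Trem2 and Abca1 were highest in macrophages of libraries 1 and 2, Apoc1, Apoc2 and Lpl in monocytes of libraries 1 and 2, and Cd36 in dendritic cells of all 3 libraries.

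The smaller apolipoproteins had another order. Apoc2, which activates lipoprotein lipase, was at 541, 664 and 609 CPM in monocytes of libraries 1 to 3, a mean of 605 ± 61.6 CPM (SD, n = 3), and at 228 and 48.5 CPM in C1q macrophages of libraries 1 and 2. The monocyte values lay close together and above both macrophage values. Apoc2 had 0 UMIs in 76, 240 and 17 dendritic cells, which allows up to 3.51, 1.37 and 32.4 CPM at 3 counts. Apoc1, an inhibitor of lipoprotein lipase and of lipoprotein uptake, was at 197, 1520 and 356 CPM in monocytes. Macrophages had 0 Apoc1 UMIs in library 1 (up to 45.5 CPM at 3 counts) and 470 CPM in library 2, again below the monocytes of the same library. Apoc4, between them on chromosome 7 and no member of the set, was at 45.5 and 312 CPM in macrophages and 20.2 and 67.8 CPM in monocytes of libraries 1 and 2.

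Of the genes linked to lipid-laden macrophages, Trem2 was shared by both classes and Gpnmb was not. Trem2 stood at 379 and 1010 CPM in C1q macrophages of libraries 1 and 2 and at 172, 405 and 297 CPM in monocytes. It was found in 1713 of 1866 macrophages of library 2. Gpnmb, a transmembrane glycoprotein of lysosome-rich cells, had 7018 UMIs in macrophages of library 2 (500 CPM) and 1 UMI in those of library 1 (15.2 CPM, exact Poisson 95% interval 0.384 to 84.5). Monocytes had 1, 4 and 0 Gpnmb UMIs. A level as high as in library 2 thus lies outside the counting interval of the 10 macrophages of library 1. In library 2, Gpnmb was found in 671 of 1866 macrophages, with 76.3% of its UMIs in 187 cells. The interval does not cover which cells were drawn, so a difference between the mice of libraries 1 and 2 cannot be read from it. These intervals cover counting error only.

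Fabp5, a cytosolic fatty acid carrier, was at 91.0 CPM in macrophages of library 1 (6 UMIs) and 1970 CPM in library 2. Monocytes had 119, 399 and 683 CPM. Spp1, which encodes the secreted protein osteopontin, was at 30.3 CPM in macrophages of library 1 (2 UMIs) and 409 CPM in library 2, and at 255, 160 and 208 CPM in monocytes. By counting intervals the order of macrophages and monocytes reversed between libraries for Spp1, with 2 UMIs behind the macrophage value of library 1. Its intervals there were 3.67 to 110 CPM in macrophages and 208 to 310 CPM in monocytes. For Fabp5, with 6 macrophage UMIs, the intervals of library 1 overlapped (33.4 to 198 CPM and 87.2 to 158 CPM), so no order can be read there. Abca1 was at 288 and 188 CPM in macrophages and 109, 131 and 149 CPM in monocytes. Lpl and Cd36 were nearly missing from macrophages. Lpl had 0 UMIs in library 1 and 17 in library 2 (1.21 CPM), against 35.4, 67.8 and 0 CPM in monocytes. The monocyte Lpl UMIs lay in 3 of 52 cells of library 1 and 14 of 130 cells of library 2. Cd36 had 0 and 26 UMIs in macrophages (1.85 CPM in library 2), against 42.1, 33.4 and 75.5 CPM in dendritic cells.

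To ask which members separate C1q macrophages from monocytes, UMIs were summed per library and class and compared by edgeR's quasi-likelihood test, blocking on library and adjusting p by Benjamini-Hochberg across 10382 genes. All 10 members passed the filter on low counts. Gpnmb rose by 6.12 on the log2 scale (SE 0.97, adjusted p 0.0004004) and Apoe by 2.02 (SE 0.45, adjusted p 0.008312). Lpl fell by 5.39 (SE 0.58, adjusted p 2.49e-06), Apoc2 fell by 3.02 (SE 0.58, adjusted p 0.002662) and Apoc1 fell by 1.82 (SE 0.49, adjusted p 0.03504). These were 2 of 10 members higher and 3 of 10 lower, where 1.53% and 1.51% of all genes were called higher and lower. Fabp5 (1.55), Trem2 (1.05), Abca1 (0.83), Spp1 (0.33) and Cd36 (-1.35) did not pass. The median member differed by 0.58 and the median gene by 0.10. With DESeq2 or without the library block only Lpl was called, although Apoe (2.10 and 2.32) and Gpnmb (4.84 and 6.36) kept differences of similar size. Apoc1 also lost the call under RLE scaling (-1.74), without library 3 (-1.63), with a C1q gate of 10 UMIs (-1.33) and with at least 30 cells per sum (-1.18). Without library 2, which leaves 10 macrophages, 3 members were called: Apoe higher, Apoc1 lower and Spp1 lower (-3.57), while Gpnmb could not be tested.

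**Figure D2:**
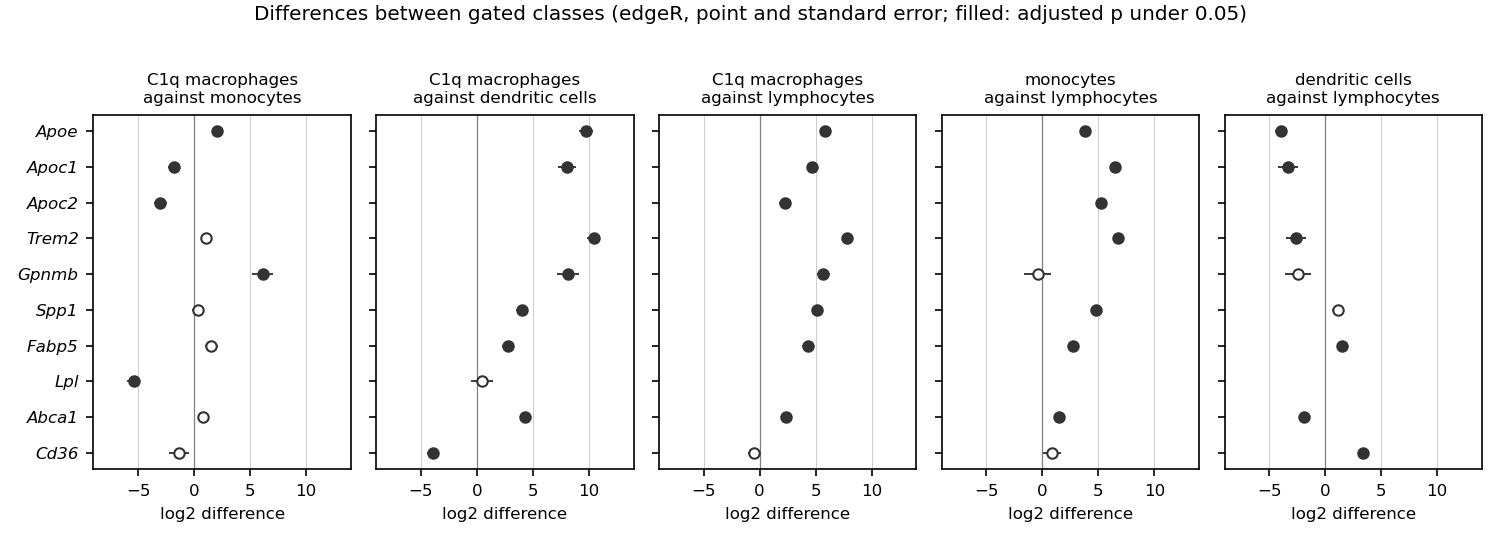
Fitted log2 differences (x axis) of each member in the 5 comparisons of classes, with the standard error as a bar and filled points where the edgeR adjusted p was under 0.05. Apoc2 is left out where dendritic cells, with 0 UMIs of it, were compared, and Lpl where lymphocytes were, since B cells had 0 UMIs of it. Lpl, Apoc2 and Apoc1 lie below 0 against monocytes, and Cd36 lies below 0 against dendritic cells.

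Against dendritic cells, the other professional antigen-presenting class, 8 of 10 members were higher in C1q macrophages and 1 was lower, where 10.9% and 9.87% of all genes were called higher and lower. Trem2 rose by 10.42 on the log2 scale (SE 0.62, adjusted p 2.826e-12), with 0, 2 and 0 UMIs in dendritic cells. Apoe rose by 9.78 (SE 0.63, adjusted p 7.913e-12) and Abca1 by 4.26 (SE 0.37, adjusted p 1.264e-09). Apoc2 was at least 65.0-fold higher in macrophages of library 1 and at least 35.4-fold in library 2, taking 3 counts per library as the floor. Cd36 fell by 3.91 (SE 0.57, adjusted p 5.896e-06) and Lpl did not pass (0.47, SE 0.95). The median member differed by 6.14, or 4.70 with Apoc2 at its bound, and the median gene by -0.01. Without library 2 the calls numbered 4, those of Trem2, Apoe, Abca1 and Apoc2.

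Against lymphocytes (the mean of T and B cells) 8 of 10 members were higher in C1q macrophages and 0 lower, with 20.8% of all genes called higher and 19.3% lower. Trem2 led with 7.81 (SE 0.36, adjusted p 2.415e-15) and Apoe followed with 5.81 (SE 0.40, adjusted p 4.019e-12). Gpnmb rose by 5.70, Spp1 by 5.16, Apoc1 by 4.68, Fabp5 by 4.28, Abca1 by 2.34 and Apoc2 by 2.24. Cd36 did not pass (-0.52, adjusted p 0.496), nor did Lpl, for which B cells had 0 UMIs and macrophages 0 and 17. In library 2 macrophages had 0.945 times the Lpl level of T cells. The Spp1 difference came mainly from B cells, which had 3 UMIs or fewer in each library. Macrophages were above T cells in Spp1 in library 2 (409 and 59.9 CPM) and below them in library 1 (30.3 and 58.2 CPM). Without library 2, Fabp5, Spp1 and Apoc1 lost the call, Gpnmb was not tested, and 4 of 10 members remained called. Apoc2 lost the call with DESeq2, at 2.61.

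Monocytes were above lymphocytes in 8 of 10 members, with 17.3% of all genes called higher and 15.3% lower, and that count was 8 under each of the 13 alternatives run. The set differed from that of macrophages: Lpl was called higher (adjusted p 3.401e-11) and Gpnmb did not pass (-0.42, SE 1.22). Lpl had 0 UMIs in B cells of every library, so no fitted size is given. In libraries 1 and 2 monocytes were 29.7-fold and 53.0-fold above T cells in Lpl. They were at least 27.4-fold and 71.3-fold above B cells at 3 counts per library, while library 3 had 0 monocyte UMIs. Few monocytes carried Lpl: 3 of 52 held the 14 UMIs of library 1 and 14 of 130 the 45 UMIs of library 2. A single cell held 7 and 16 of these. Trem2 rose by 6.76, Apoc1 by 6.50, Apoc2 by 5.25, Spp1 by 4.82, Apoe by 3.79, Fabp5 by 2.73 and Abca1 by 1.5. Cd36 did not pass (0.83). The monocyte sums rested on 52, 130 and 16 cells, and in library 3 a single cell held 114 of 224 Apoe UMIs.

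Against the mean of T and B cells, dendritic cells were higher in Cd36 and Fabp5 and lower in several members. Cd36 rose against lymphocytes by 3.39 (SE 0.37, adjusted p 3.098e-08) and Fabp5 by 1.53 (SE 0.45, adjusted p 0.01088). Apoe fell by 3.97 (SE 0.51, adjusted p 6.047e-07), Apoc1 fell by 3.35, Trem2 fell by 2.61, Abca1 fell by 1.92 and Apoc2, at 0 UMIs in dendritic cells, was also called lower. These were 2 members higher and 5 lower, where 16.6% and 12.7% of all genes were called. The calls of Apoc1, Trem2 and Fabp5 were lost with DESeq2 and without library 2, leaving 4 in each case. With a strict lineage gate (0 T or B marker UMIs in myeloid cells and few myeloid UMIs in lymphocytes) the sign of Apoc1 turned, to 0.29. The Trem2 difference ranged from -3.25 to -0.59 over the 13 alternatives. In T cells with no Lyz2 and no C1q UMI, Apoc1 was at 0.0794, 2.16 and 0 CPM, against 1.17, 1.37 and 0 CPM in dendritic cells. Trem2 was at 0, 3.18 and 0.389 CPM in those T cells, against 0, 0.916 and 0 CPM in dendritic cells. The part of stray transcripts in the lymphocyte levels was not tested.

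Within dendritic cells the members that were present lay in different subsets. The subsets were taken from the gate genes, as cells with Xcr1 or Clec9a (type 1 conventional dendritic cells), with Cd209a (type 2) and with Fscn1 (a gene of mature migratory cells). Cd36 was at 80.8, 55.5 and 78.1 CPM in Xcr1 or Clec9a cells of libraries 1 to 3 (28, 102 and 8 cells). It had 1 and 0 UMIs in Cd209a cells and 1 and 0 in Fscn1 cells of libraries 1 and 2, while 67 of the 73 Cd36 UMIs of dendritic cells in library 2 lay in the first subset. Fabp5 was at 157 CPM (exact Poisson interval 83.5 to 268) in the 8 Fscn1 cells of library 1 and at 3070 CPM (2850 to 3290) in the 37 of library 2. The same gene was at 0 and 9.11 CPM in Xcr1 or Clec9a cells, so 757 of 842 dendritic Fabp5 UMIs in library 2 came from 37 of 240 cells. A single dendritic cell held 171 of those 842 UMIs and 24 cells held 93.9%. The Poisson interval does not cover this spread between cells. Spp1, at 41.7 and 37.3 CPM in Xcr1 or Clec9a cells of libraries 1 and 2, had 0 and 1 UMI in each of the other subsets. This split was chosen after levels had been seen and was not tested.

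**Figure D3:**
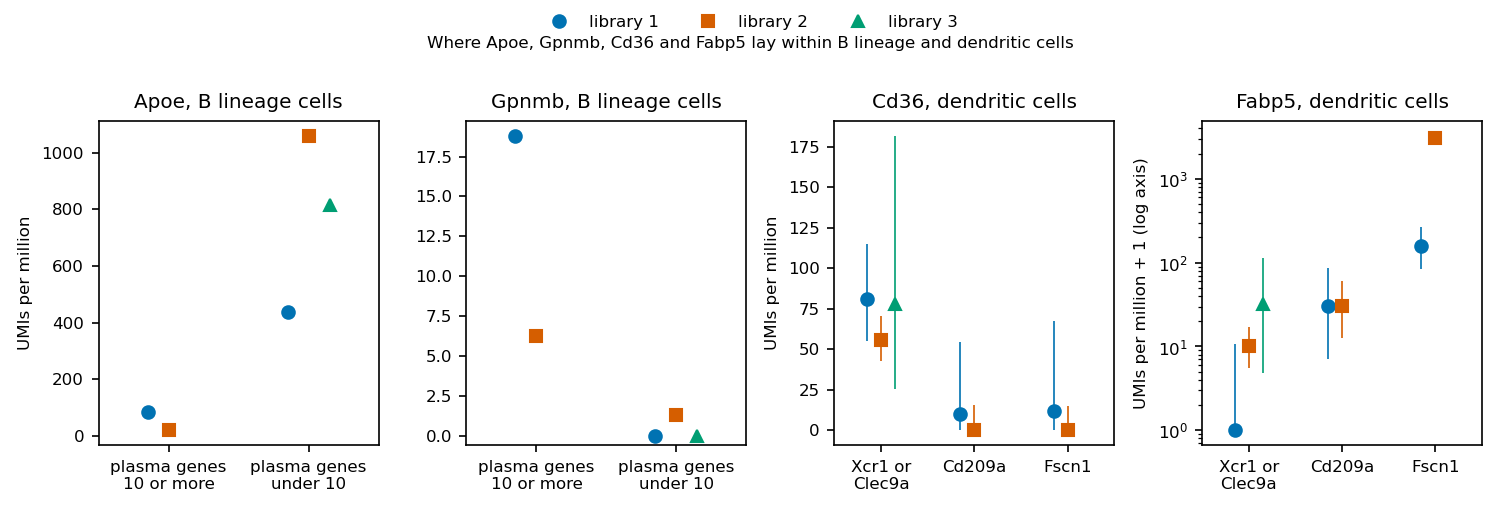
Levels in CPM of Apoe and Gpnmb in B lineage cells with at least 10 or with under 10 UMIs of the plasma cell genes Jchain, Xbp1 and Mzb1, and of Cd36 and Fabp5 in dendritic cells by gate gene, 1 point per library. Bars in the dendritic panels are exact Poisson 95% intervals, subsets under 10 B cells or under 8 dendritic cells are not drawn, and the Fabp5 axis is a log axis of CPM + 1. Apoe lay mainly in B cells with few plasma gene UMIs, Gpnmb in those with many, Cd36 in Xcr1 or Clec9a cells and Fabp5 in Fscn1 cells.

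The members were also read in lymphocytes, where the part of stray transcripts was not tested. In T cells Apoe stood at 44.0, 334 and 81.3 CPM, highest in library 2, the library with the most macrophages. In library 2 the Apoe UMIs were spread over 1354 of 4005 T cells. Elsewhere some sums rested on single cells. In library 3 a single T cell held 180 of 215 Apoe UMIs, in library 2 a single T cell held 85 of 130 Gpnmb UMIs, and in library 1 a single T cell held 122 of 313 Apoc2 UMIs. In T cells with no Lyz2 and no C1q UMI (2674, 2462 and 1153 cells), Apoe was lower, at 3.97, 95.3 and 4.67 CPM, and Apoc2 was at 0.0794, 0.411 and 0 CPM. Spp1 changed little under that restriction, from 58.2, 59.9 and 23.4 CPM to 47.2, 64.2 and 23.4 CPM. Fabp5 likewise went from 51.3, 113 and 83.6 CPM to 45.2, 84.7 and 85.3 CPM, and Abca1 from 35.6 and 22.2 CPM to 33.8 and 19.0 CPM in libraries 1 and 2.

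With each cell thinned to 500 UMIs, Apoe was found in 80.0% of macrophages of library 1 and 95.3% of library 2. The share was 26.9%, 65.4% and 18.8% in monocytes, 0.910%, 7.87% and 0.767% in T cells, and 11.8%, 17.6% and 8.54% in B cells of libraries 1 to 3. Dendritic cells had 0 of 76, 9 of 240 and 0 of 17, so the share in B cells was above that in T cells and dendritic cells of each library. Exact binomial 95% intervals in library 1 were 8.61% to 15.7% for B cells and 0.595% to 1.33% for T cells. Without thinning the shares in library 2 were 98.1% of macrophages (median 7337 UMIs per cell), 33.8% of T cells (median 2819), 33.8% of dendritic cells (median 8717.5) and 45.8% of B cells (median 3086.5).

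B cells carried Apoe and Abca1. Apoe was at 276, 274 and 683 CPM in B cells of libraries 1 to 3, and restricting to B cells with no Lyz2 and no C1q UMI left 273, 246 and 714 CPM. For each UMI of the macrophage genes Ms4a7, Pf4 and Adgre1 together, B cells had 107 Apoe UMIs in library 1 and 47.9 in library 2, over 6 and 18 UMIs of those genes. Macrophages had 7.71 and 20.4, T cells 10.3 and 26.3 and monocytes 8.27 and 41.4, so in library 2 the monocyte ratio was close to that of B cells. For each C1q UMI in library 2, monocytes had 204 Apoe UMIs and B cells 8.72. The gates allowed 1 C1q UMI in a monocyte and up to 4 in a B cell, so these ratios cannot be compared. The part of transcripts from monocytes in the B cell level was not tested. Among B cells with under 10 UMIs of the plasma cell genes Jchain, Xbp1 and Mzb1, Apoe was at 438, 1060 and 815 CPM, in 70 of 305, 129 of 258 and 11 of 80 cells. In those with at least 10 plasma gene UMIs it was at 83.5 CPM and 20.5 CPM, in 6 of 42 and 35 of 100 cells of libraries 1 and 2. UMI totals per cell differ between these groups and enter the CPM: in library 1 the counts were 89 Apoe UMIs in 42 cells and 555 in 305. Abca1 followed the same split, at 174, 168 and 110 CPM against 14.1 and 10.5 CPM, and was present in 132 of 305 and 91 of 258 B cells with few plasma gene UMIs in libraries 1 and 2.

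Gpnmb in B lineage cells went the other way. All 20 of its UMIs in library 1 and 15 of 16 in library 2 lay in cells with at least 10 plasma gene UMIs, at 18.8 and 6.28 CPM, in 9 of 42 and 14 of 100 cells. A single cell held 10 of the 20 UMIs of library 1. T cells had 0.140 and 7.54 CPM in the same libraries, so on these sums only the library 1 level stood above T cells. A single T cell held 85 of the 130 Gpnmb UMIs of T cells in library 2. In cells with no Lyz2 and no C1q UMI, Gpnmb was at 0.159 and 1.13 CPM in T cells and 8.57 and 5.85 CPM in B cells of libraries 1 and 2. Against T cells in the same edgeR fit, a comparison chosen after levels were seen, B cells were higher for Apoe (2.57, SE 0.43, adjusted p 2.295e-05), Abca1 (2.18, SE 0.27, adjusted p 1.782e-07), Gpnmb (2.13, SE 0.75, adjusted p 0.03649) and Apoc2 (1.95, SE 0.49, adjusted p 0.003503). Without library 1 the Gpnmb difference was 0.25, and that call was also lost with DESeq2, with RLE scaling, without the block, without library 3 and with at least 30 cells per sum. B cells were lower for Spp1, Trem2, Apoc1, Fabp5 and Lpl, with 10.6% of all genes called higher and 16.9% lower. In library 2 itself Apoe was lower in B than in T cells (274 and 334 CPM), and it was higher in libraries 1 and 3. The calls of Abca1 and Spp1 held under all 13 alternatives, and without the library block they were the 2 calls left.

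Macrophages of library 2 were not uniform in these genes. After thinning each cell to 2000 UMIs, which left out 142 of 1866 cells, 440 macrophages had a Gpnmb UMI and 1284 had none (25.5% with). Cells with Gpnmb had 3820 CPM of Fabp5 against 936 CPM without, a ratio of 4.08, and 681 against 241 CPM of Spp1, a ratio of 2.82. Trem2 was at 1290 and 904 CPM, Apoe at 36400 and 30100 CPM, and Abca1 at 209 and 187 CPM. Apoc2 went the other way, at 17.0 CPM with Gpnmb and 73.6 CPM without. C1qa differed little, at 8280 and 7870 CPM. Among other genes of lipid-laden macrophages, Ctsd (a lysosomal protease) had a ratio of 3.15, Lgals3 (galectin-3) 3.06, Igf1 3.08 and Ctsb 2.08, while Axl (0.965) and Cd9 (1.25) were nearly level. The fatty acid carrier Fabp4 was at 44.3 against 1.95 CPM and the monoglyceride lipase Mgll at 35.2 against 2.73 CPM.

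**Figure D4:**
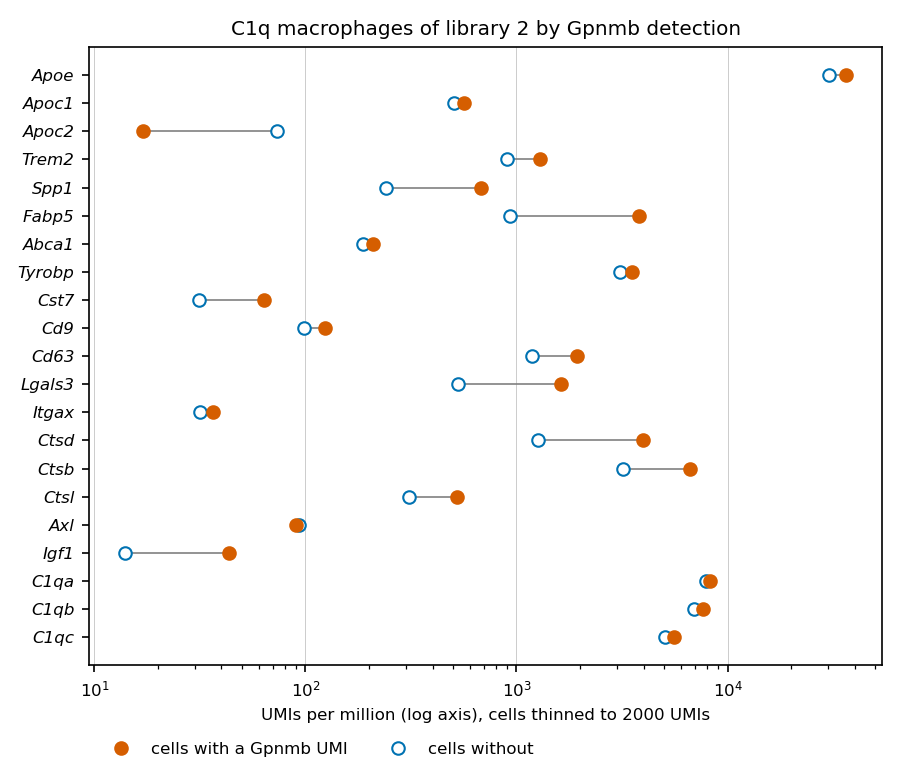
CPM (log axis) in C1q macrophages of library 2 with a Gpnmb UMI (filled, 440 cells) and without (open, 1284 cells), each cell thinned to 2000 UMIs, for members, genes of lipid-laden macrophages with at least 50 UMIs, and the C1q genes. Fabp5, Spp1, Ctsd and Lgals3 were higher in cells with Gpnmb, Apoc2 was lower, and the C1q genes lay close together.

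Monocyte genes moved against Gpnmb in the same split: Ccr2, a monocyte homing receptor, was at 10.2 CPM with Gpnmb and 62.3 CPM without, and Plac8 at 29.5 and 114 CPM. Of the macrophage markers, Pf4 (ratio 0.328), Csf1r (0.719) and Adgre1 (0.873) were also lower with Gpnmb. Cd68 (2.36), Mertk (1.7) and Ms4a7 (1.25) were higher. Across 1724 thinned macrophages the Spearman correlation was 0.52 between Gpnmb and Fabp5, 0.47 between Apoe and the C1q genes, 0.30 between Apoe and Trem2 and 0.23 between Gpnmb and Spp1. These describe cells of 1 mouse that share a library and a depth, so no p is given. All 1866 cells come from a single animal, and whether other mice have such cells cannot be read from the 10 and 4 macrophages of libraries 1 and 3.

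Ordering the same macrophages by the C1q share of their UMIs, in 4 groups of 466 or 467 cells, arranged the apolipoproteins in opposite directions. Apoe was at 16100, 30400, 38500 and 39100 CPM from the lowest to the highest group, and Trem2 at 651, 1010, 1090 and 1170 CPM. Apoc2 ran from 168 through 51.5 and 13.9 to 3.75 CPM, and Apoc1 was at 946, 480, 277 and 352 CPM. The monocyte genes Ccr2 (130, 36.8, 12.9 and 8.25 CPM) and Plac8 (359, 62.9, 15.1 and 5.50 CPM) ran in the same direction as Apoc2. Gpnmb (288, 633, 550 and 475 CPM) and Fabp5 (1400, 2330, 2200 and 1810 CPM) were highest in the second group. The median cell had 5078, 6910, 8452 and 8302 UMIs in the 4 groups, so depth moved with the order, and its part in the levels was not tested.

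**Figure D5:**
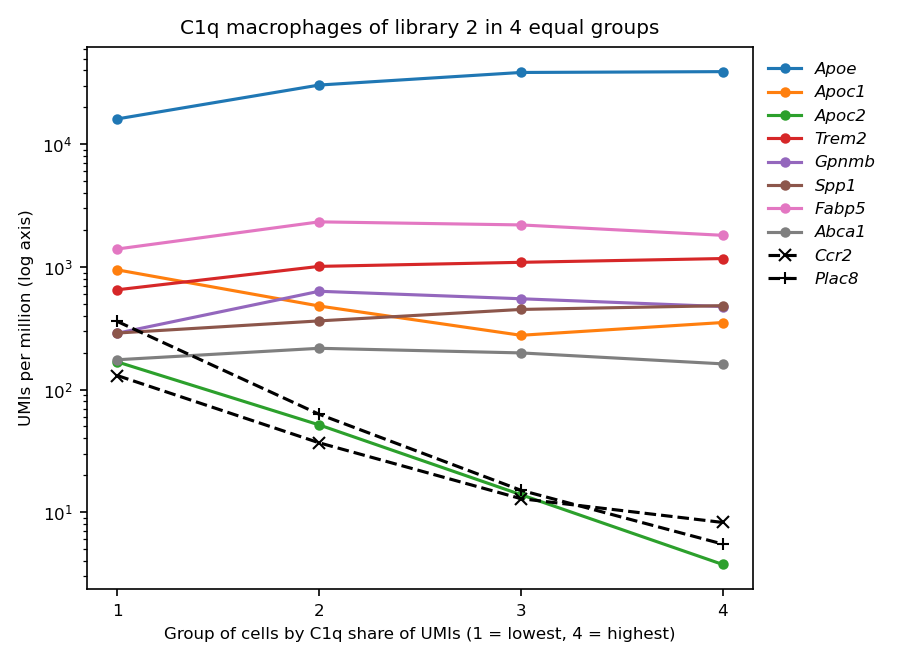
CPM (log axis) of 8 members and of the monocyte genes Ccr2 and Plac8 (dashed) in C1q macrophages of library 2, divided into 4 groups of equal size by the C1q share of their UMIs. Apoc2 runs down with Ccr2 and Plac8, Apoe and Trem2 run up, and Gpnmb and Fabp5 peak in the second group.

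The wider lipid pathways were read from lists of genes chosen by function. Of 16 tested genes of sterol efflux and lipoprotein handling, 3 rose in C1q macrophages against monocytes and 0 fell: Ch25h, which makes 25-hydroxycholesterol (3.56, SE 0.94), Nr1h3, the liver X receptor alpha (1.70, SE 0.48), and Npc1, the lysosomal cholesterol exporter (1.51, SE 0.35). The list median was 0.25, and 1.53% of all genes rose in that comparison. Against lymphocytes 11 rose and 0 fell, with 20.8% of all genes higher, led by Ch25h (7.85), Nr1h3 (5.81) and Lrp1, a receptor for apolipoprotein E (5.24). In dendritic cells 7 of the 16 rose against lymphocytes, with 16.6% of all genes higher, led by Scarb1, the HDL receptor (3.56), Cyp27a1 (3.54) and Pltp (3.07), although Apoe and Abca1 fell there.

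Of 14 tested genes of fatty acid uptake and storage, 3 rose against monocytes and 1 fell, with a list median of 0.08. In that comparison 1.53% of all genes rose and 1.51% fell. Slc27a1, a fatty acid transporter, rose by 4.44 (SE 0.80), Acsl1, which activates fatty acids, rose by 1.46 (SE 0.33), and Mgll, which had the least precise estimate, was also called higher (8.87, SE 2.02). Olr1, a scavenger receptor for oxidised lipoprotein, fell by 2.26 (SE 0.60). Of 11 tested genes of lipid-laden macrophages, 3 rose against monocytes and 0 fell, with a list median of 1.13 and the same shares of all genes. Cd63 rose by 3.93 (SE 0.43), Cd9 by 2.68 (SE 0.49) and Ctsd by 1.81 (SE 0.48). Against lymphocytes 9 of the 14 fatty acid genes rose and 0 fell, and 10 of the 11 genes of lipid-laden macrophages rose and 1 fell, where 20.8% of all genes rose and 19.3% fell. Of 5 tested genes of resident macrophages 0 passed in either direction against monocytes with edgeR, while 5 of 5 rose against lymphocytes, led by Folr2, Cx3cr1 (5.80) and Mrc1 (5.32).

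Over the 14 sums of at least 10 cells, the gene most like each member was sought among 5281 others by Pearson correlation of log2(CPM + 1). Trem2 was matched most closely, by Chil1, Fcgr3 and Hal (0.98, 0.98 and 0.978), Apoc1 by Ms4a4a (0.95), Spp1 by Emp1 (0.953), Fabp5 by Dtnbp1 (0.94), Cd36 by Nop16 (0.918), Apoe by Daglb (0.90), Apoc2 by Fn1 (0.88), Abca1 by Nrp2 (0.877), Gpnmb by Syngr1 (0.853) and Lpl by Chmp3 (0.787). Among members, Apoc2 and Abca1 (0.90), Apoe and Abca1 (0.86), Apoe and Trem2 (0.82), and Trem2 and Spp1 (0.82) were most alike, and Cd36 ran against Apoe (-0.69). The sums of a library share its mice, and the correlations carry no p.

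Transcripts of other nerve cells were counted in the same sums. Fibroblast markers (Col1a1, Col1a2, Col3a1, Dcn and Lum) were at 0 UMIs in macrophages of library 1 and at 6.34 CPM in those of library 2, and adipocyte markers (Adipoq, Plin1, Cidec and Lep) were at 0 UMIs in macrophages, monocytes and dendritic cells of every library. Endothelial markers (Pecam1, Cdh5, Cldn5 and Kdr) summed to 15.2 and 4.28 CPM in macrophages, and platelet markers (Ppbp, Gp9, Itga2b and Gp1bb) to 0 and 0.143 CPM. Neutrophil markers (S100a8, S100a9, Retnlg, Csf3r and Mmp8) summed to 45.5 and 71.5 CPM in macrophages and 93.5, 79.9 and 134 CPM in monocytes, and to 1480 CPM in T cells of library 3. A list of 7 Schwann cell markers summed to 45.5 and 181 CPM in macrophages and to 162, 138 and 109 CPM in T cells, so that list did not single out a class. The part of these transcripts in the members' levels was not tested.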

How the data were processed

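The authors mapped 5′ gene expression reads of each library to mm10 with Cell Ranger (5.0.1 for library 1 and 6.1.2 for libraries 2 and 3, per the file headers) and deposited unnormalised UMI counts for each gene in each cell. Libraries 2 and 3 carry the same gene list, and the matrix of library 1 was read in that order. Its row totals correlated with theirs (Spearman 0.9501 and 0.9287 across 32285 genes, against 0.3554 and 0.3241 when shifted by 1 row).

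Following the study, cells with under 300 UMIs, over 5000 genes or over 20% mitochondrial UMIs were left out, which kept 3848 of 3926, 8256 of 8311 and 1533 of 1533 cells. Deposited UMIs totalled 22983991, 55120460 and 3399733, with a median of 3985.5, 4659 and 1726 per cell, so library 3 was the least precise. No doublet caller was run, and limits on the markers of other lineages in each gate stood in its place. A cell in both the monocyte and the dendritic gate went to neither, myeloid gates allowed 1 C1q and 1 T or B marker UMI, and T and B gates allowed up to 4 C1q UMIs.

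Counts were summed per library and class (at least 10 cells) and tested in 1 fit with edgeR 4.0.16 in R 4.3.3 (TMM, filterByExpr, library as a block, gate genes left out, threshold 0.05). The classes of a library come from the same mice, which is where the pairing comes from. P-values measure the spread left after the library block, estimated for each gene over all classes together. Macrophages entered from libraries 1 and 2 only, so their own spread is largely assumed to be like that of the other classes. The test was first tested on simulated data with the same dispersion for every gene and class. That run cannot show how the test behaves on a sum of 10 macrophages. Levels are CPM of the class total, intervals are exact Poisson or binomial at 95% and the floor is 3 counts. Alternatives were DESeq2 1.42.0, other scaling, filters and gates, and leaving out each library. Every member was described, and list genes were named as up to 3 with the largest difference in each direction among those called. Some genes of the marker lists are not reported here, and the lists were summed without them. Similar genes needed a mean of 20 CPM. The members, gates and lists were chosen with earlier results of these data known. Positions come from GENCODE vM21 and promoter windows from RefSeq GRCm38.p6.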

Additional observations from a re-analysis of the deposited data

How the results depend on the processing

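Under 13 alternatives, the counts of members called kept within 1.5 times of the reported count in 66 of 78 cases. For C1q macrophages against monocytes the 5 calls became 1 with DESeq2 and 1 without the replicate block, and 3 to 6 when 1 library was left out. For dendritic cells against lymphocytes the 7 calls became 4 with DESeq2, 4 without the replicate block and 4 to 8 with a library left out. For B cells against T cells the 9 calls became 4 with DESeq2, 2 without the replicate block and 5 to 7 with a library left out. The 9 calls of macrophages against dendritic cells ranged from 4 to 9 and the 8 against lymphocytes from 4 to 8 with a library left out, the lowest each time without library 2, which leaves 10 macrophages in a lone sum assumed to vary like the other classes. Of 46 calls, 23 kept their direction and side of the threshold under every alternative that could be run (Gpnmb could not be tested without library 2). Against monocytes, Fabp5 was called higher under 5 alternatives and Trem2 under 3, although neither was in the reported fit.

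Some signs turned. Spp1 in macrophages against monocytes was -0.14 with DESeq2, where the reported fit gave 0.33. It was 1.23 with a C1q gate of 10 UMIs and 1.32 with at least 30 cells per sum, settings that left only the macrophage sum of library 2. Gpnmb in monocytes against lymphocytes was 0.48 with DESeq2, 0.31 with a C1q gate of 3 UMIs, 0.91 with no C1q UMI in other classes and 0.82 with the strict lineage gate. With that gate Cd36 in macrophages against lymphocytes was 0.24 and Apoc1 in dendritic cells against lymphocytes 0.29. With a library left out, Spp1 against monocytes ranged from -3.57 to 1.18 and Fabp5 from -0.86 to 2.27, Apoc1 in macrophages from -4.51 to 8.66 against dendritic cells and from -6.28 to 5.26 against lymphocytes, Lpl from -4.58 to 0.66 and from -2.32 to 3.02, and Cd36 in monocytes against lymphocytes from -0.11 to 1.31. The extremes without library 2 rest on 0 UMIs of Apoc1 and Lpl in 10 macrophages, and fitted values of Lpl against lymphocytes on 0 UMIs in B cells. The cause of the other changes was not tested.

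Over all genes, 316 were called between macrophages and monocytes, against 142 with DESeq2, 46 without the block, 538 with no filter on low counts, 516 with a C1q gate of 10 UMIs and 37 without library 2. Between macrophages and dendritic cells 2154 were called, against 1380 with DESeq2, 1101 without the block and 264 without library 2. Without the block 1965 rather than 3040 genes differed between dendritic cells and lymphocytes and 1680 rather than 2863 between B and T cells. Without library 2 the counts were 586 rather than 4157 (macrophages against lymphocytes), 1997 rather than 3383 (monocytes), 1504 (dendritic cells) and 1339 (B against T cells), and without library 1 monocytes gave 2238. Shares of cells with a UMI left their interval in 75 of 140 cases without thinning and in 41 at 1000 UMIs, since deeper cells show more genes. The comparison of B with T cells was added after the data were seen.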
